A study of Ericerus pela with 8 samples.

Results

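Transcript levels were compared between early-stage adult females and second-instar female larvae of the Chinese white wax scale (Ericerus pela), a sap-sucking insect of the order Hemiptera. The members were the library labelled as early-stage adult females and the library labelled as second-instar female larvae, chosen by the stage and sex in their labels, and together they were 2 of the 8 RNA-seq libraries of the series. The remaining libraries came from first-instar females, middle-stage and later-stage adult females, first-instar and second-instar males, and adult males, with 1 library per group. The labels give sex and stage for each group and no strain, age, host plant, treatment or number of insects per library. They name no tissue, so a lower level may come from fewer cells of a type or from less RNA per cell, and these cannot be told apart. The question was which transcripts separate a female that has passed its last moult from the larval instar before it.

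Female scale insects keep a larva-like body as adults: they have no wings, settle on the plant and feed on its sap. At a moult, insects digest the inner part of the old cuticle, lay down new chitin and cuticular proteins, and tan the new cuticle with phenol-oxidising enzymes. The moulting cycle is timed by pulses of ecdysone, which act through nuclear receptors such as HR3, and juvenile hormone keeps a moult larval.

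The unit of measurement was the unigene, an assembled transcript fragment that may be a piece of a gene. The authors counted reads assigned uniquely to each unigene, 1986832 in the early adult library and 1917587 in the second-instar library. Levels are given as CPM, the count scaled to a common total, so that 1 read was worth 0.503 CPM in early adults and 0.522 CPM in second-instar larvae. A count of 0 allows up to 3 reads, or 1.51 CPM in early adults and 1.56 CPM in second-instar larvae. Where a library had no read, "at least" a fold gives the ratio to this floor of 3 reads, which is not the lower end of an interval. Of 147509 unigenes read anywhere in the series, 124770 were read in either library and 93105 in both. Each side had 1 library, so no difference was checked against replicates and none has a p-value. The intervals are exact 95% binomial intervals that cover counting error only. A unigene is called higher or lower when its level plus 1 CPM differed by at least 4-fold between the libraries, with at least 20 reads in either.

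The library labelled as early adult stood nearer to the larval females than to the other adult females. It differed from the second-instar library by the 4-fold rule at 1.34% of the unigenes that reached 20 reads in either, which was the lowest share among the 28 pairs of libraries. The early adult library differed from that of first-instar females at 1.79%, from that of middle-stage adult females at 10.4% and from that of later-stage adult females at 17.9%. The middle-stage library differed from the second-instar library at 8.69%, and second-instar females differed from first-instar females at 2.59%. Second-instar males differed from second-instar females at 6.3%, and adult males, which are winged, differed from second-instar males at 27.5%. How far into adult life the early-stage females were is not given in the labels.

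**Figure D1:**
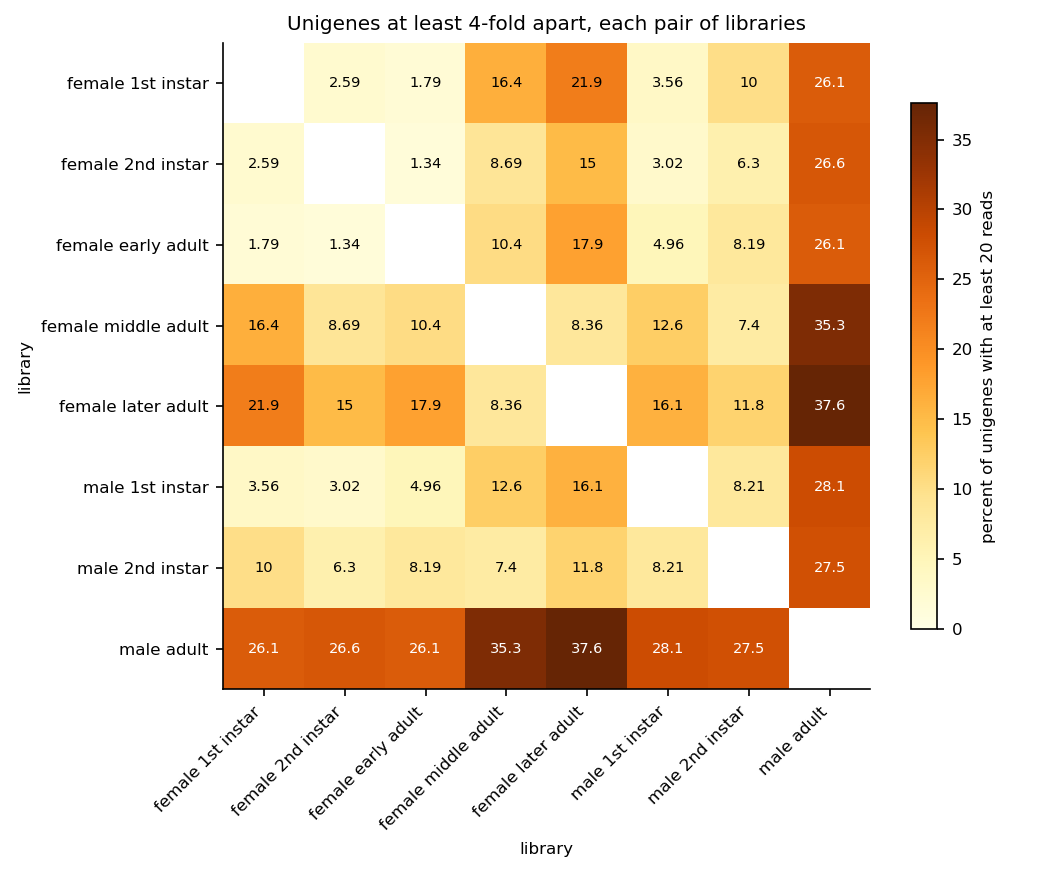
Percent of unigenes at least 4-fold apart between each pair of the 8 libraries, among unigenes that reached 20 reads in either library of the pair; rows and columns are libraries in stage order, females before males. The cell of early adult and second-instar females holds 1.34, the lowest value, and the cells of early adults with middle-stage and later-stage adult females hold 10.4 and 17.9.

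Of 31975 unigenes that reached 20 reads in either library, 392 (1.23%) were higher and 38 (0.119%) were lower in early adults than in second-instar larvae. Among the calls 91.2% were thus on the higher side, while 29215 unigenes (91.4%) differed by less than 2-fold. The counting interval of the ratio lay wholly above 4-fold for 173 of the 392 and wholly above 2-fold for 378. On the lower side, 22 of the 38 lay wholly beyond 4-fold and 36 beyond 2-fold. The 392 higher unigenes held 2.33% of the reads in early adults and 0.192% in second-instar larvae. The 38 lower unigenes held 0.0081% of the reads in early adults and 0.121% in second-instar larvae. At 2-fold the numbers were nearer to each other, with 1841 (5.76%) higher and 919 (2.87%) lower.

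Most of what separated the libraries had no known protein. A protein match was given for 83 of the 392 higher unigenes (21.2%) and for 8 of the 38 lower ones, against 16873 of all 31975 (52.8%). Among unigenes with a match, 83 (0.492%) were higher and 8 (0.0474%) lower at 4-fold, and at 2-fold the directions were even, with 477 (2.83%) higher and 483 (2.86%) lower. Only 34 higher and 4 lower unigenes had a match that names a protein. Just inside the 4-fold rule stood an ASK-type protein kinase (Unigene149053_FOB, 31 reads in early adults and 6 in second-instar larvae). Just outside it stood a gamma-glutamyl hydrolase-like protein (Unigene139241_FOB, 60 reads in early adults and 234 in second-instar larvae).

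**Figure D2:**
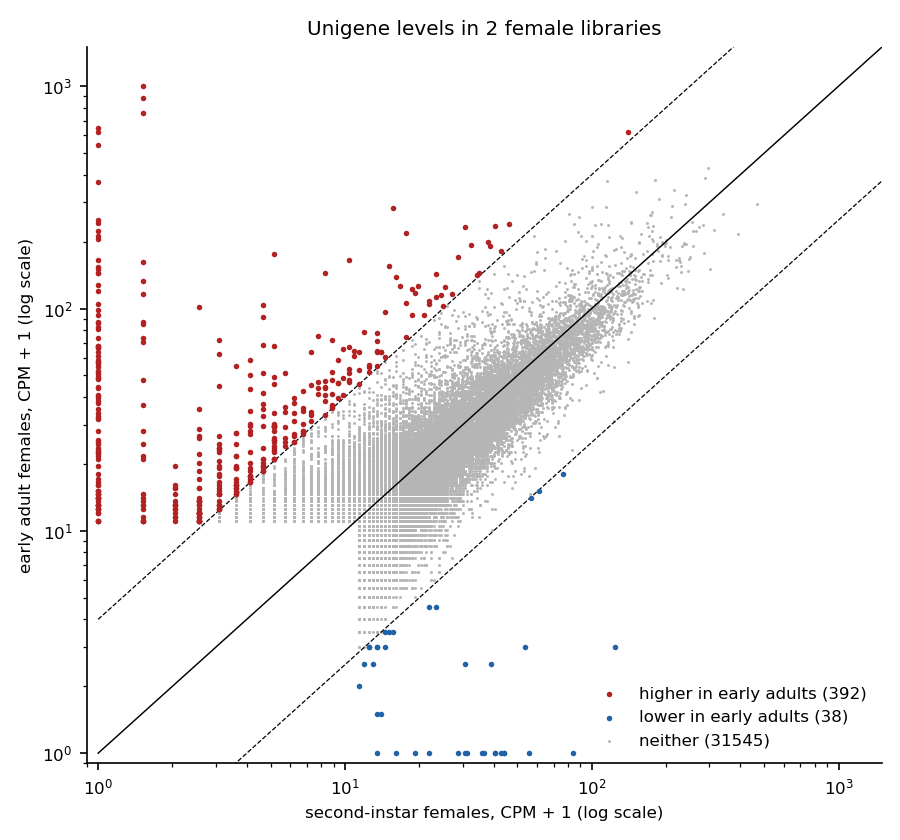
Level of each of the 31975 unigenes in early adult females (vertical axis) against second-instar females (horizontal axis), both as CPM plus 1 on log scales; the solid line marks equal levels and the dashed lines mark 4-fold differences. The 392 higher unigenes (red) include a column at 0 reads in second-instar larvae and the 38 lower ones (blue) a row at 0 reads in early adults.

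By their levels in the other libraries, the 392 higher unigenes fell into 3 sets, which were drawn up after these levels had been seen. The first set was nearly silent in larvae: 102 of the 392 had at most 2 reads in first-instar females, second-instar females and second-instar males. In later-stage adult females and in adult males, whose levels did not define the set, these 102 also had at most 2 reads each. Most of the 392 shared this, with at most 2 reads for 77.0% in later-stage adult females and 64.8% in adult males. Over all 31975 unigenes the share was 8.22% in later-stage adult females and 9.08% in adult males. The first-instar male library held more than 2 reads of 16 of the 102, up to 49 reads. The 102 unigenes took 1.001% of all reads in early adults and 0.000574% in second-instar larvae, a contrast whose direction was fixed by how the set was defined. They had a protein match in 7 cases.

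Among these 102, the level went on to middle-stage adult females in unequal ways. In 31 unigenes the middle-stage level was at or above the early adult one, by 2.05 to 8.18 times, with a median of 115 CPM in early adults and 498 CPM in middle-stage adults. In 49 unigenes the middle-stage level was at most 0.204 of the early adult one, with a median of 23.7 CPM in early adults and 2.05 CPM in middle-stage adults. The other 22 lay between these. No unigene of the 102 had a middle-stage level between 0.756 and 2.05 times its early adult level.

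The most abundant unigene of the 102 was Unigene122365_FOB, a fragment of 295 bases with no protein match, at 1990 reads in early adults and 1 read in second-instar larvae (1921-fold, 344 to 75899). It had 56 reads in middle-stage and 1 in later-stage adult females. Unigene141557_FOB had 1498 reads in early adults and 1 in second-instar larvae, and 42 in middle-stage adults. Unigene71039_FOB had 1291 reads in early adults and 0 in second-instar larvae, at least 415-fold higher, and 28 in middle-stage adults. Unigene65945_FOB had 1081 reads in early adults and 0 in second-instar larvae, at least 348-fold higher, and 31 in middle-stage adults. These 4 fragments without a match belonged to those whose level was lower by the middle stage.

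On the other side, Unigene155766_FOB, also without a match, had 1757 reads in early adults and 1 in second-instar larvae (1696-fold, 304 to 67017), then 4399 reads in middle-stage adults and 1 in later-stage adults. It was the member with the most reads in first-instar males, 49. Unigene155266_FOB matched a hypothetical protein of the beetle Tribolium castaneum, at 1237 reads in early adults and 0 in second-instar larvae, at least 398-fold higher. This unigene had 1931 reads in middle-stage adults, 1 in later-stage adults, 10 in first-instar males and none in adult males. Unigene122781_FOB had 732 reads in early adults and 0 in second-instar larvae, at least 236-fold higher, with 1464 reads in middle-stage adults. Unigene155433_FOB, of 930 bases, had 478 reads in early adults and 0 in second-instar larvae, at least 154-fold higher, with 2067 reads in middle-stage adults.

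Of the 7 matched members of this set, 5 named a protein and 4 of the 7 matched best in animals outside the arthropods and 1 in a protist. They include 3 aldehyde dehydrogenases, enzymes that oxidise aldehydes to acids. Unigene123298_FOB, matched to the sea squirt Ciona intestinalis, had 31 reads in early adults and 0 in second-instar larvae (at least 9.97-fold higher). Unigene130402_FOB, matched to the amoeba Dictyostelium, had 28 reads in early adults and 0 in second-instar larvae (at least 9.01-fold). Unigene97106_FOB, matched to the pea aphid, had 26 reads in early adults and 0 in second-instar larvae (at least 8.37-fold). The members matched to Ciona and to the pea aphid had no read in any other library. Elongation factor 1a, a translation factor, was represented by a fragment matched to the fish Oreochromis niloticus (Unigene27475_FOB, 26 reads in early adults and 0 in second-instar larvae, at least 8.37-fold). A unigene matched to a protein named pG1 had 43 reads in early adults and 0 in second-instar larvae (Unigene35606_FOB, at least 13.8-fold), with 14 reads in middle-stage adults. In the whole libraries, matches to animals outside the arthropods took 3.28% of reads in early adults and 3.61% in second-instar larvae, and matches to protists 0.371% in early adults and 0.368% in second-instar larvae; the part of other organisms in this set was not tested. In total, 11 of the 392 were read in the early adult library alone, and 9 of these had no match. The most abundant was Unigene121985_FOB at 130 reads, at least 41.8-fold higher than in second-instar larvae.

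The second set of higher unigenes was also present in the first instar. It held 228 of the 392 (58.2%), each with at least 20 reads in first-instar females. That share was below the one over all 31975 unigenes, of which 27092 (84.7%) had as many reads there. The median level of the set was 29.2 CPM in early adults, 4.17 CPM in second-instar larvae and 25.9 CPM in first-instar females. The median was 0.685 CPM in middle-stage and 0 CPM in later-stage adult females, and in males it was 9.55 CPM at the first instar, 0.917 CPM at the second and 1.09 CPM in adults. Middle-stage adults had at most 2 reads of 151 of the 228 (66.2%), against 1155 of all 27092 unigenes with at least 20 reads in first-instar females and in either compared library (4.26%). A match was given for 59 of the 228. Most of the named proteins described below belong to this set: 19 of the 34 named higher unigenes were in it, 5 in the set of 102 and 10 in neither. Unigene116252_FOB, without a match, was the most abundant of the 228 at 1228 reads in early adults and 268 in second-instar larvae (4.42-fold, 3.87 to 5.07), with 296 reads in first-instar females and 53 in middle-stage adults. Unigene2741_FOB, also without a match, had 348 reads in early adults and 8 in second-instar larvae (42.0-fold, 21.1 to 98.0), with 484 reads in first-instar females and none in middle-stage adults.

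The remaining 62 higher unigenes had fewer than 20 reads in first-instar females and were not silent in all 3 of the larval libraries named above. Their median level was 14.9 CPM in early adults and 2.09 CPM in second-instar larvae. Unigene142327_FOB had 558 reads in early adults and 28 in second-instar larvae (19.2-fold, 13.2 to 29.2), and 206 reads in second-instar males. One matched to a Drosophila gene model followed the same libraries, at 284 reads in early adults, 14 in second-instar females and 83 in second-instar males (Unigene135826_FOB, 19.6-fold, 11.5 to 36.3). Unigene131769_FOB had 141 reads in early adults and 4 in second-instar larvae (34.0-fold, 13.0 to 127), and 179 reads in middle-stage adults. Thus the first pair was also read in second-instar males, and the last had 71.0 CPM in early adults and 122.5 CPM in middle-stage adults.

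The lower side held few unigenes, and 16 of its 38 had no read in early adults. All 16 also had no read in middle-stage and later-stage adult females, which did not define the group, against 361 of all 31975 unigenes. All 16 were read in first-instar females and in the 3 male libraries, as were 30432 of all 31975. The reads of the 16 ranged from 24 to 159 in second-instar females, from 11 to 64 in first-instar females and from 41 to 670 in adult males. Unigene121595_FOB had 0 reads in early adults and 159 in second-instar larvae, at least 54.9-fold lower, with 64 reads in first-instar females, 24 in first-instar males, 21 in second-instar males and 670 in adult males. Unigene105298_FOB had 0 reads in early adults and 105 in second-instar larvae, at least 36.3-fold lower, and 212 reads in adult males. Unigene79515_FOB had 0 reads in early adults and 83 in second-instar larvae, at least 28.7-fold lower, and 432 reads in adult males. The fragment with the most reads in second-instar larvae followed a similar course: Unigene73994_FOB had 4 reads in early adults and 236 in second-instar larvae (0.0164 of the second-instar level, 0.00442 to 0.0424), and 839 reads in adult males. Of the 16, 13 had no match, 2 matched animals outside the arthropods and 1 a protist. The only one with a named protein matched a virulent strain associated lipoprotein of the protist Trichomonas vaginalis, at 0 reads in early adults and 40 in second-instar larvae (Unigene156558_FOB, at least 13.8-fold lower). Whether these transcripts come from the insect, or whether the larval libraries held insects of the other sex, was not tested.

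**Figure D3:**
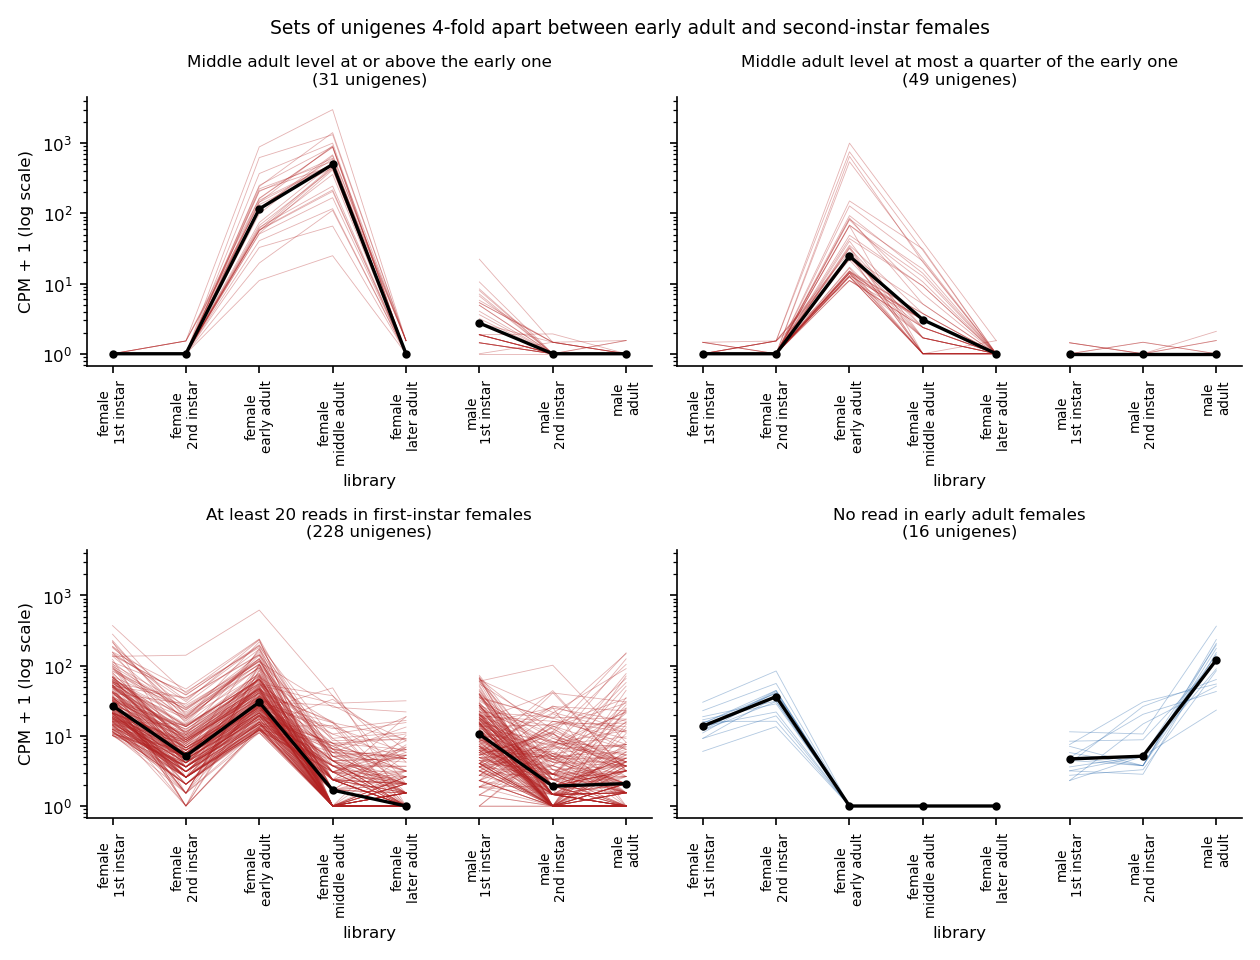
Levels of 4 sets of unigenes across the 8 libraries, as CPM plus 1 on a log scale; thin lines are unigenes, black points and lines are set medians, and females and males are drawn as separate lines. The top panels split the set of 102 by the middle-stage level (31 and 49 unigenes), the bottom left panel shows the 228 unigenes with at least 20 reads in first-instar females, and the bottom right panel the 16 lower unigenes without a read in early adults.

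Osiris proteins and part of the cuticle proteins were higher in early adults. Osiris proteins are an insect family that in Drosophila is made mainly by epidermis and other tissues that form cuticle. All 6 members had at least 20 reads, 3 were higher at 4-fold, 5 at 2-fold and none was lower, and their median log2 ratio was 2.03. Of all unigenes with a match 0.492% were higher at 4-fold and 2.83% at 2-fold, with a median log2 ratio of -0.15. Osiris 18 had 71.0 CPM in early adults and 7.82 CPM in second-instar larvae (Unigene131426_FOB, 141 and 15 reads, 9.07-fold, 5.32 to 16.6). Osiris 19 had 60.4 CPM in early adults and 9.91 CPM in second-instar larvae (Unigene114046_FOB, 6.10-fold, 3.74 to 10.5). Osiris 12 had 32.7 CPM in early adults and 5.22 CPM in second-instar larvae (Unigene151294_FOB, 6.27-fold, 3.20 to 13.7). The most abundant member, matched to an Osiris protein without a number, had 332 reads in early adults and 122 in second-instar larvae (Unigene156895_FOB, 2.63-fold, 2.13 to 3.26), and osiris 9 had 39 reads in early adults and 11 in second-instar larvae (Unigene109575_FOB, 3.42-fold, 1.72 to 7.41). Osiris 16, at 24 reads in early adults and 17 in second-instar larvae, did not differ beyond counting error (Unigene26392_FOB, 1.36-fold, 0.702 to 2.70). All 6 were read in first-instar females, at 79 to 520 reads, and in middle-stage adults the most abundant member had 16 reads and the other 5 had none. Males also had reads, since the 6 summed to 235 CPM in first-instar, 2.29 CPM in second-instar and 148 CPM in adult males. Their sum in early adult females was 363 CPM. The most abundant member had 340 reads in first-instar males, 4 in second-instar males and 267 in adult males.

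Structural cuticle proteins showed the same direction in smaller steps. Of 10 members with at least 20 reads, 2 were higher at 4-fold, 4 at 2-fold and none was lower, with a median log2 ratio of 0.70. Cuticular protein 47Ef had 43 reads in early adults and 6 in second-instar larvae (Unigene155012_FOB, 6.92-fold, 2.93 to 19.9). Cuticular protein 62 had 30 reads in early adults and 4 in second-instar larvae (Unigene9085_FOB, 7.24-fold, 2.55 to 28.3). Cuticular protein 70, the most abundant, had 113 reads in early adults and 39 in second-instar larvae (Unigene147188_FOB, 2.80-fold, 1.93 to 4.14), and 238 reads in first-instar females. Cuticle protein 8 had 39 reads in early adults and 35 in second-instar larvae (Unigene145358_FOB, 1.08-fold, 0.664 to 1.75). A unigene matched to the adult-specific cuticular protein ACP-20 of another insect had 62 reads in early adults and 43 in second-instar larvae, a difference within counting error (Unigene35996_FOB, 1.39-fold, 0.928 to 2.10).

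Among enzymes that make, break and tan cuticle 1 was called. Beta-alanyl conjugating enzyme, which like ebony joins beta-alanine to amines such as dopamine for tanning, had 27 reads in early adults and 5 in second-instar larvae (Unigene124139_FOB, 5.21-fold, 1.98 to 17.3), and it was not found by the words of the tanning list. Among 38 unigenes of the tanning list, 0 were called at 4-fold, 9 were higher and 1 lower at 2-fold (23.7% and 2.63% of the list), although the median log2 ratio was -0.21. All 4 unigenes matched to laccase 2, the oxidase that tans beetle cuticle, were among the 9. The most abundant of them had 123 reads in early adults and 44 in second-instar larvae (Unigene154803_FOB, 2.70-fold, 1.90 to 3.90), with 170 reads in first-instar females, 6 in middle-stage adults and 462 in adult males. Ebony, which joins beta-alanine to dopamine for tanning, had 69 reads in early adults and 29 in second-instar larvae (Unigene150013_FOB, 2.30-fold, 1.47 to 3.68). Aromatic-L-amino-acid decarboxylase, which makes dopamine, had 67 reads in early adults and 27 in second-instar larvae (Unigene151557_FOB, 2.39-fold, 1.51 to 3.90). By contrast, the most abundant member, laccase 1, had 519 reads in early adults and 331 in second-instar larvae (Unigene157329_FOB, 1.51-fold, 1.32 to 1.74). In the chitin turnover list none of 39 was called at 4-fold, 4 were higher and 1 lower at 2-fold, and the median log2 ratio was 0.38. Of all matched unigenes 0.492% were higher at 4-fold, so the absence of calls says little of lists of 38 and 39 members. At 2-fold 2.83% of all matched unigenes were higher and 2.86% lower. Chitinases digest the chitin of the old cuticle; chitinase 7 had 850 reads in early adults and 563 in second-instar larvae (Unigene157267_FOB, 1.46-fold, 1.31 to 1.62), and chitinase 5 had 52 reads in early adults and 18 in second-instar larvae (Unigene84460_FOB, 2.79-fold, 1.604 to 5.06).

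Protease inhibitors and serine proteases were called higher in several cases and lower in none. A serpin, a protein that traps serine proteases, matched to clade A member 1d of the pea aphid, had 90.6 CPM in early adults and 3.65 CPM in second-instar larvae (Unigene152574_FOB, 180 and 7 reads, 24.8-fold, 11.8 to 62.6). Reads covered 95.3% of its length in early adults and 25.8% in second-instar larvae. It had 147 reads in first-instar females and 86 in first-instar males, and at most 1 read in each of the other 4 libraries. A second unigene with that match had 43 reads in early adults and 4 in second-instar larvae (Unigene120540_FOB, 10.4-fold, 3.77 to 39.8). The inhibitors were not uniform, since of 17 members 2 were higher at 4-fold, 3 were higher at 2-fold and 2 were lower at 2-fold. Of all matched unigenes 0.492% were higher and 0.0474% lower at 4-fold, so few lower calls could have been seen. At 2-fold 2.83% of all matched unigenes were higher and 2.86% lower. A serpin had 37 reads in early adults and 75 in second-instar larvae (Unigene147870_FOB, 0.476 of the second-instar level, 0.312 to 0.715).

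The serine proteases and clotting-type proteases, a family grouped after its values had been seen, had 64 unigenes with at least 20 reads. A member need not be a protease. One matched a multiple coagulation factor deficiency protein 2-like protein (Unigene143049_FOB, 25 reads in early adults and 26 in second-instar larvae). In this family 8 were higher at 4-fold and none lower, and 25 were higher and 1 lower at 2-fold, with a median log2 ratio of 0.64. Of all matched unigenes 0.492% were higher at 4-fold and 2.83% at 2-fold, with a median log2 ratio of -0.15. Proclotting enzyme, a clip-type protease known from horseshoe crab blood clotting, was represented by Unigene144550_FOB at 52 reads in early adults and 6 in second-instar larvae (8.37-fold, 3.59 to 23.8). A second such unigene had 90 reads in early adults and 16 in second-instar larvae (Unigene151441_FOB, 5.43-fold, 3.17 to 9.90), and another 103 reads in early adults and 27 in second-instar larvae (Unigene153439_FOB, 3.68-fold, 2.39 to 5.85). Serine protease P16 had 65 reads in early adults and 8 in second-instar larvae (Unigene34055_FOB, 7.84-fold, 3.75 to 18.9). A trypsin had 57 reads in early adults and 7 in second-instar larvae (Unigene141419_FOB, 7.86-fold, 3.58 to 20.4), and it had its most reads, 227, in adult males. The most abundant member of the family, a trypsin-like serine protease, had 511 reads in early adults and 169 in second-instar larvae (Unigene155528_FOB, 2.92-fold, 2.45 to 3.49). Coagulation factor XI, matched in the pea aphid, had 21 reads in early adults and 2 in second-instar larvae (Unigene29383_FOB, 10.1-fold, 2.48 to 89.2).

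**Figure D4:**
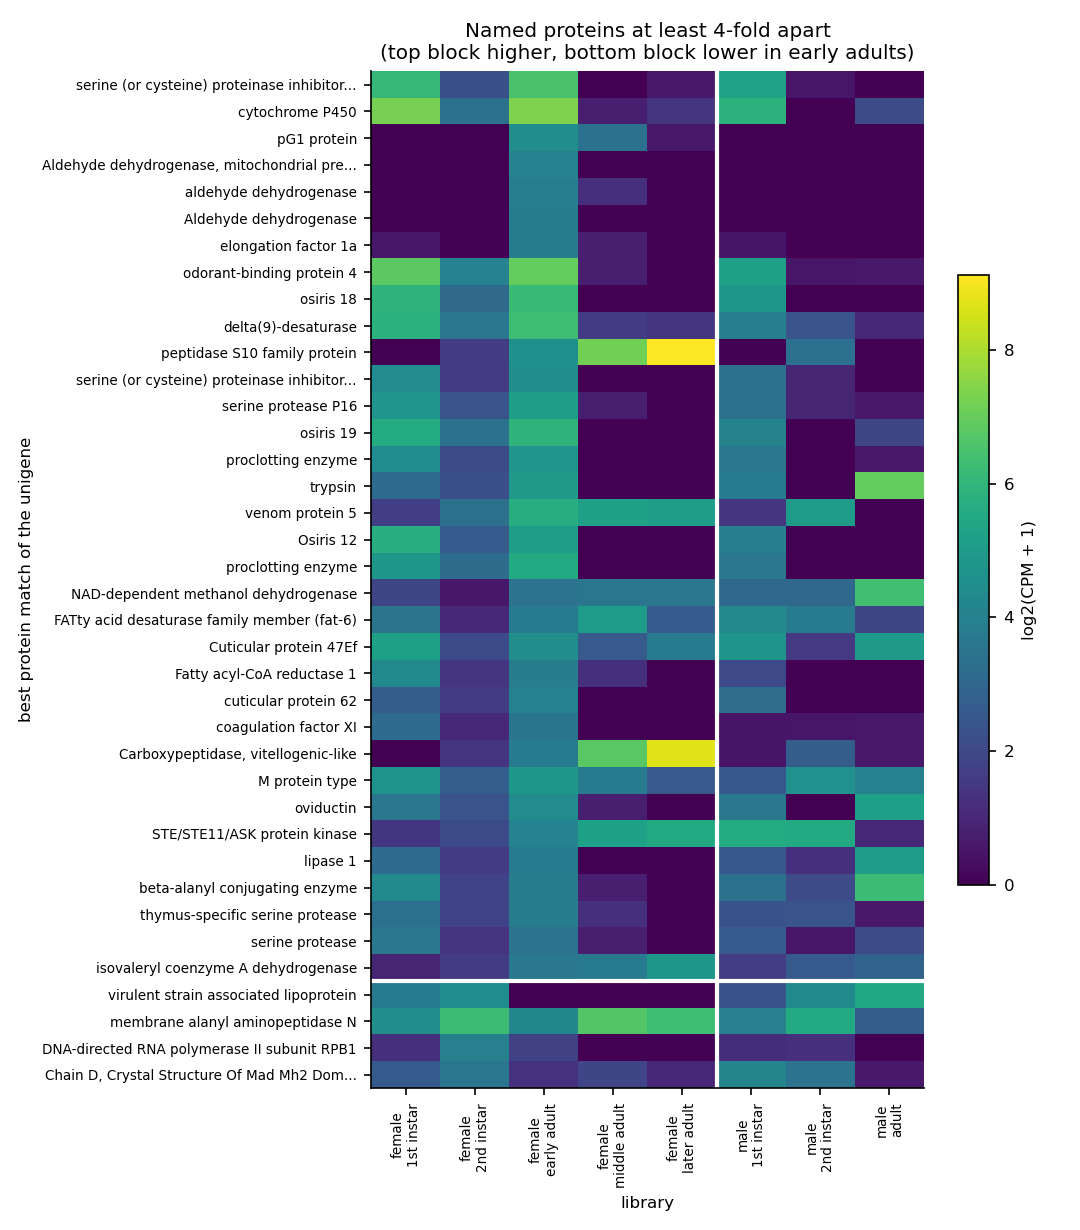
Levels of the 34 higher (top block) and 4 lower (bottom block) unigenes with a named protein across the 8 libraries, as log2 of CPM plus 1, with 1 row per unigene and 1 column per library; the white line parts females from males. Rows such as the serpin, the P450, odorant-binding protein 4 and osiris 18 are bright in first-instar and early adult females and dark in middle-stage and later-stage adult females.

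Enzymes of fatty acid and wax synthesis were called in 3 of 82 cases, all higher, and the median log2 ratio was -0.16. At 2-fold 6 were higher and 1 lower (7.32% and 1.22% of the list). Of all matched unigenes 0.492% were higher at 4-fold, and 2.83% were higher and 2.86% lower at 2-fold. Delta(9)-desaturase, which puts a double bond into fatty acids, had 77.5 CPM in early adults and 10.9 CPM in second-instar larvae (Unigene30350_FOB, 154 and 21 reads, 7.08-fold, 4.47 to 11.8). Another desaturase unigene, matched best to fat-6 of Caenorhabditis elegans, had 25 reads in early adults and 2 in second-instar larvae (Unigene120116_FOB, 12.1-fold, 3.01 to 105). Fatty acyl-CoA reductase 1 had 26 reads in early adults and 3 in second-instar larvae (Unigene112816_FOB, 8.37-fold, 2.56 to 43.2). Reductases of this kind make the fatty alcohols that go into wax esters. A fatty acid synthase unigene had 172 reads in early adults and 52 in second-instar larvae (Unigene35408_FOB, 3.19-fold, 2.33 to 4.44), with 123 reads in first-instar females and none in middle-stage or later-stage adult females. One desaturase went the other way, with 43 reads in early adults and 115 in second-instar larvae (Unigene154536_FOB, 0.361 of the second-instar level, 0.248 to 0.517).

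Lipid storage and transport had 1 of 64 members called, near the 0.492% of all matched unigenes called higher. It was lipase 1, an enzyme that splits stored fat, at 24 reads in early adults and 4 in second-instar larvae (Unigene33953_FOB, 5.79-fold, 1.99 to 23.0). Apolipophorin, the lipid carrier of insect blood, had 31 reads in early adults and 83 in second-instar larvae in 1 of its unigenes (Unigene143798_FOB, 0.361 of the second-instar level, 0.231 to 0.551). At 2-fold the list was even, with 4 members higher and 4 lower.

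Among 9 chemosensory unigenes 1 was higher at 4-fold, 4 at 2-fold and none was lower at 2-fold. Of all matched unigenes 0.492% were higher at 4-fold and 2.83% at 2-fold. Odorant-binding proteins carry odorants and other small lipophilic molecules in the fluid around sensory neurons and in other tissues. Odorant-binding protein 4 had 126 CPM in early adults and 15.6 CPM in second-instar larvae (Unigene131504_FOB, 250 and 30 reads, 8.04-fold, 5.50 to 12.2), with 249 reads in first-instar females, 1 in middle-stage adults and 1 in adult males. An odorant-binding protein matched to OBP5 of an aphid had 358 reads in early adults and 136 in second-instar larvae (Unigene143110_FOB, 2.54-fold, 2.08 to 3.12). Chemosensory protein 9 had 40 reads in early adults and 10 in second-instar larvae (Unigene149527_FOB, 3.86-fold, 1.90 to 8.66). A further odorant-binding protein had 17 reads in early adults and 34 in second-instar larvae (Unigene33657_FOB, 0.483 of the second-instar level, 0.253 to 0.888). With 1 CPM added to both levels, as in the counts, its difference was just below 2-fold. Of the 2 gustatory receptors for trehalose, one had 35 reads in each library (Unigene115843_FOB).

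Cytochrome P450 enzymes oxidise hormones, fatty acids and foreign compounds. Of 104 members 1 was higher and none lower at 4-fold, 13 were higher and 1 lower at 2-fold, and the median log2 ratio was 0.20. The single call is near the 0.492% of all matched unigenes and says nothing of the group, while at 2-fold 12.5% of the list were higher, against 2.83% of all matched unigenes. The called member had 165 CPM in early adults and 9.39 CPM in second-instar larvae (Unigene156686_FOB, 327 and 18 reads, 17.5-fold, 10.9 to 29.96). It also had 337 reads in first-instar females and 133 in first-instar males, against 1 read in middle-stage and 3 in later-stage adult females. The match description gives no P450 subfamily for it. P450 CYP6AY1 had 128 reads in early adults and 38 in second-instar larvae (Unigene153756_FOB, 3.25-fold, 2.25 to 4.80).

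No unigene of the ecdysone list (17 members) or the juvenile hormone list (34 members) was called at 4-fold. Of all matched unigenes 0.492% were higher and 0.0474% lower, so few calls could have been seen in lists of this size. HR3, a nuclear receptor switched on by ecdysone in Drosophila, had 200 reads in early adults and 75 in second-instar larvae (Unigene149930_FOB, 2.57-fold, 1.96 to 3.40), with 170 reads in first-instar females, none in middle-stage and 5 in later-stage adult females. A second one, matched to hormone receptor in 46-like protein, another name for this receptor in Drosophila, had 164 reads in early adults and 47 in second-instar larvae (Unigene150455_FOB, 3.37-fold, 2.42 to 4.76). Of the ecdysone list 2 of 17 members (11.8%) were higher at 2-fold and none lower. Of all matched unigenes 2.83% were higher and 2.86% lower at 2-fold. Juvenile hormone esterase breaks down juvenile hormone, and its most abundant unigene had 276 reads in early adults and 100 in second-instar larvae (Unigene157293_FOB, 2.66-fold, 2.11 to 3.38). Of 34 members of the juvenile hormone list 3 (8.82%) were higher at 2-fold, all of them matched to this esterase, and none was lower.

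Enzymes of the digestion lists went in both directions. These lists are word searches, so a member need not act in the gut. At 4-fold 0.492% of all matched unigenes were higher and 0.0474% lower, and at 2-fold 2.83% were higher and 2.86% lower. The list of proteases and peptidases of digestion also takes in serine proteases named above. In it 23 of 144 were higher and 11 lower at 2-fold (16.0% and 7.64%). At 4-fold 5 of the 144 were higher and 1 was lower. Aminopeptidase N, a membrane enzyme that trims peptides in the insect midgut, was the lower one: a unigene matched to membrane alanyl aminopeptidase N had 17.1 CPM in early adults and 75.6 CPM in second-instar larvae (Unigene32210_FOB, 34 and 145 reads, 0.226 of the second-instar level, 0.151 to 0.331). The other libraries had 48 reads of it in first-instar females, 147 in middle-stage adults and 143 in later-stage adults. With DESeq2 size factors this unigene missed the 4-fold rule. A second aminopeptidase N unigene had 27 reads in early adults and 106 in second-instar larvae (Unigene122580_FOB, 0.246 of the second-instar level, 0.155 to 0.378), and 80 in middle-stage adults. Of 24 aminopeptidase N unigenes none was higher at 2-fold, 6 were lower, and the median log2 ratio was -0.55. Sucrase, which splits the sucrose of plant sap, had 44 reads in early adults and 158 in second-instar larvae in 1 of its 4 unigenes (Unigene156059_FOB, 0.269 of the second-instar level, 0.188 to 0.378), and 516 reads in middle-stage adults. Trehalase, which splits the blood sugar of insects, had 22 unigenes, of which 3 were lower and none higher at 2-fold.

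A pair of peptidases had their highest levels in later-stage adult females. A unigene matched to a peptidase S10 family protein of Dictyostelium had 45 reads in early adults and 4 in second-instar larvae (Unigene45856_FOB, 10.9-fold, 3.96 to 41.6), then 210 in middle-stage and 1040 in later-stage adult females. A vitellogenic-like carboxypeptidase, of that same peptidase family, had 25 reads in early adults and 3 in second-instar larvae (Unigene46325_FOB, 8.04-fold, 2.45 to 41.6), then 160 in middle-stage and 764 in later-stage adult females. Neither was read in first-instar females. In second-instar males the S10 unigene had 20 reads and the vitellogenic-like one 12, above their reads in second-instar females, and adult males had 0 and 1. These fragments are short, at 158 and 159 bases.

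The higher named proteins not yet described had 20 to 100 reads in early adults. Venom protein 5, matched in a parasitoid wasp, had 100 reads in early adults and 18 in second-instar larvae (Unigene53687_FOB, 5.36-fold, 3.23 to 9.42). Another unigene with this match went the other way, at 51 reads in early adults and 139 in second-instar larvae (Unigene145758_FOB, 0.354 of the second-instar level, 0.252 to 0.491). Isovaleryl coenzyme A dehydrogenase, an enzyme of leucine breakdown, had 23 reads in early adults and 4 in second-instar larvae (Unigene53500_FOB, 5.55-fold, 1.90 to 22.1). The others were matched to an M protein type, oviductin, a thymus-specific serine protease, a serine protease and an NAD-dependent methanol dehydrogenase. The other 3 lower named proteins had few reads. One matched to the MH2 domain of Mad, a signal carrier of the BMP pathway, had 3 reads in early adults and 21 in second-instar larvae (Unigene102216_FOB, 0.138 of the second-instar level, 0.0263 to 0.462). A unigene matched to the largest subunit of RNA polymerase II of the protist Cryptosporidium had 5 reads in early adults and 28 in second-instar larvae (Unigene36050_FOB, 0.172 of the second-instar level, 0.0520 to 0.452), and at most 3 in each other library. The lipoprotein match is given above.

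Vitellogenin, the yolk protein precursor, had 154 reads in early adults and 164 in second-instar larvae in its most abundant unigene (Unigene149785_FOB, 0.906 of the second-instar level, 0.723 to 1.14). None of the 4 yolk and storage members and none of the 25 germline members was called at 4-fold or at 2-fold, where 2.83% of all matched unigenes were higher and 2.86% lower, so that few calls could have been seen in lists of this size. Maternal tudor protein, a component of germ granules, had 158 reads in early adults and 186 in second-instar larvae (Unigene157471_FOB, 0.820 of the second-instar level, 0.659 to 1.02). Sex-lethal, a splicing regulator of sex determination in Drosophila, had 60 reads in early adults and 89 in second-instar larvae (Unigene148793_FOB, 0.651 of the second-instar level, 0.461 to 0.913).

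Most ribosomal proteins had a lower level in early adults, by small factors. None of 49 cytosolic ribosome members was called at 4-fold, none was higher and 4 were lower at 2-fold, 42 had a log2 ratio below 0, and the median log2 ratio was -0.55, or -0.49 under TMM and -0.47 under DESeq2 size factors. Over all matched unigenes 63.8% had a log2 ratio below 0. Ribosomal protein L37 had 586 reads in early adults and 893 in second-instar larvae (Unigene12684_FOB, 0.633 of the second-instar level, 0.570 to 0.704). The lists of muscle (129 members), cell cycle (132), extracellular matrix (123), mitochondrial respiration (28), heat shock proteins (49), insulin signalling (44), nervous system (90), protein folding (87), immunity (60), other detoxification (107), transposable elements (75), sugar digestion and transport (100), sperm and axoneme (25), vision (13), UDP-glycosyltransferases (8), wing patterning (13), segment patterning (28) and sex determination (3) had no member called at 4-fold. Of all matched unigenes 0.492% were higher and 0.0474% lower at 4-fold. Few calls could thus have been seen in these lists or among the ribosomal members. The median log2 ratios of these lists lay between -0.60 for sex determination and 0.07 for immunity. The medians of the ecdysone, sperm and chemosensory lists were below 0 with the header totals and above 0 under TMM and DESeq2 size factors, so no direction is given for them.

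**Figure D5:**
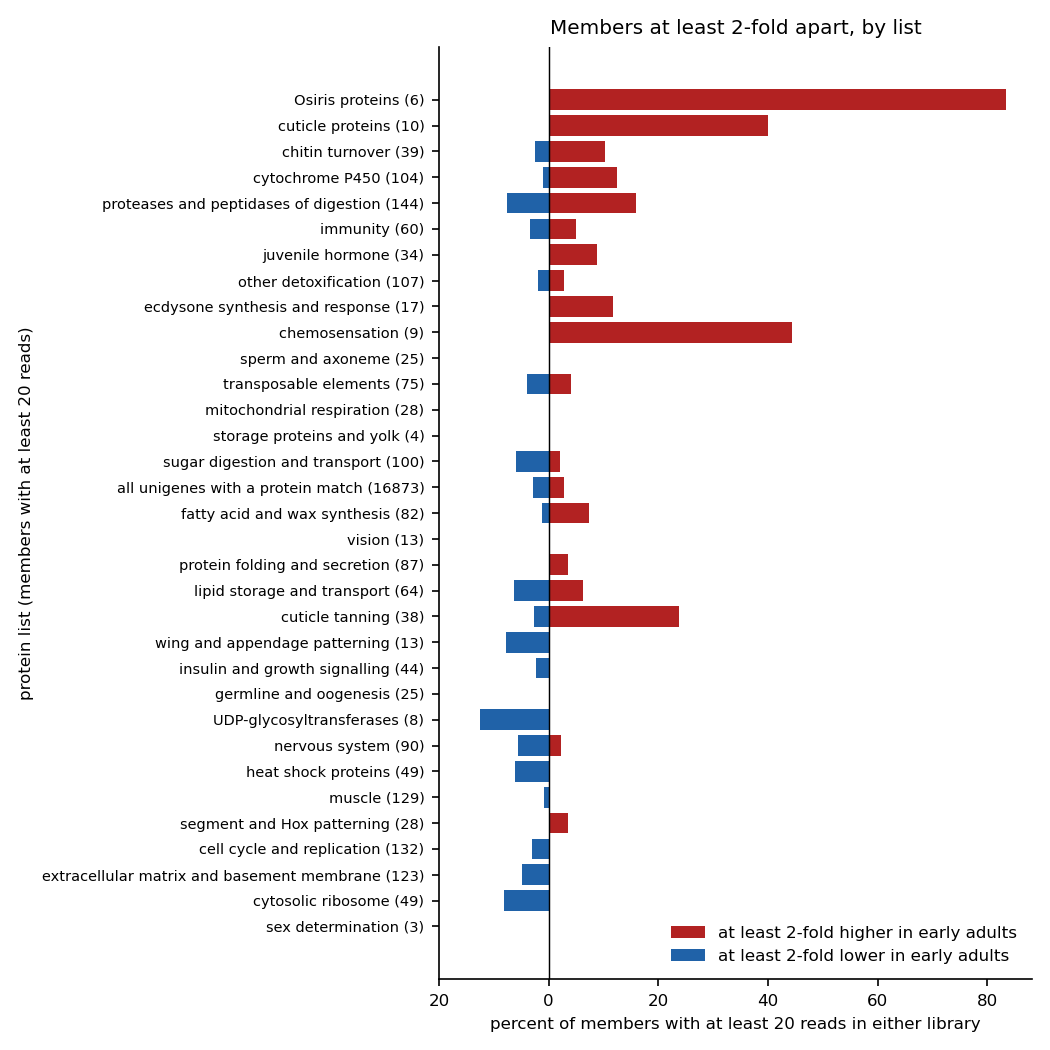
Percent of each list's members that were at least 2-fold higher (red, to the right) or lower (blue, to the left) in early adult than in second-instar females, with the number of members with at least 20 reads in brackets; lists are ordered by median log2 ratio. The Osiris and chemosensory lists reach 83.3% and 44.4% on the higher side, against 2.83% for all matched unigenes.

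By RPKM, the authors' count scaled to unigene length and library total, the highest in early adults was a serine protease inhibitor-like protein at 1371 RPKM, against 650 RPKM in second-instar larvae (Unigene117056_FOB, 749 and 343 reads, 2.11-fold, 1.85 to 2.40), and it had 797 reads in middle-stage adults. Ribosomal protein L37 led in second-instar larvae, at 1199 RPKM in early adults and 1893 RPKM in second-instar larvae (Unigene12684_FOB). A muscle LIM protein, a scaffold of the sarcomere, had 1016 RPKM in early adults and 1351 RPKM in second-instar larvae (Unigene48139_FOB). A fusion of ubiquitin and ribosomal protein S30 had 955 RPKM in early adults and 1281 RPKM in second-instar larvae (Unigene57963_FOB). A second muscle LIM unigene had 901 RPKM in early adults and 664 RPKM in second-instar larvae (Unigene44710_FOB). Beta-actin, of the cytoskeleton, had 829 RPKM in early adults and 975 RPKM in second-instar larvae (Unigene23048_FOB). Ribosomal protein L3 had 489 RPKM in early adults and 944 RPKM in second-instar larvae (Unigene106617_FOB). None of these 7 unigenes was called at 4-fold.

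Unigenes that share a best match are not independent. Of 13080 matched proteins 2368 took 2 or more unigenes with at least 20 reads. In 23 of these at least 1 unigene was higher, in 5 all were higher, in 18 some were higher and the others not called, and in none was 1 called higher and another lower. Only 2 of the 2368 held a lower unigene, so this count says little about splits, and the venom protein 5 unigenes above differed in direction at 2-fold. The summed level of fat body markers was 306 CPM in early adults and 463 CPM in second-instar larvae, with 9 of 12 unigenes read in both. Haemocyte markers summed to 443 CPM in early adults and 546 CPM in second-instar larvae, and gut markers to 1511 CPM in early adults and 1568 CPM in second-instar larvae. The gut markers went in both directions. Trypsin summed to 577 CPM in early adults and 280 CPM in second-instar larvae, and peritrophin to 131 CPM and 102 CPM in that order. Aminopeptidase N summed to 689.5 CPM in early adults and 1014 CPM in second-instar larvae, and sucrase to 113 CPM and 172 CPM in that order. Muscle markers summed to 638 CPM in early adults and 794 CPM in second-instar larvae, and neuron markers to 425 CPM in early adults and 473 CPM in second-instar larvae. Germ line markers, at 75.5 CPM in early adults and 69.9 CPM in second-instar larvae, gave the only sum over a whole tissue or cell type that was not below the second-instar one. Hexamerin and hemocytin, defining markers of fat body and haemocytes, had no read in either library. No marker was called except 1 gut unigene higher and 1 lower, a trypsin and an aminopeptidase N, and the part of tissue makeup in the differences above was not tested.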

How the data were processed

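RNA was sequenced in 8 libraries, 1 per group. Per the labels' protocols, RNA was extracted with TRIzol and libraries followed standard Illumina protocols. Per the file headers, the authors give for each unigene the count of uniquely assigned reads, its length, its RPKM, the percent of its length covered by reads and its best protein match. The sources used here name no aligner, assembler or strand setting, nor how reads of near-identical family members were treated. The deposited counts summed to the header totals in 8 libraries, and RPKM recomputed from them differed by at most 2.3e-09 in relative terms.

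Counts were joined by unigene, with a missing unigene as 0 reads. Levels are CPM by the header total. The call used the log2 ratio of levels with 1 CPM added, from the deposited counts, a 4-fold rule and at least 20 reads in either library. Ratios are without the added amount, with exact conditional binomial intervals of 95%, and a library at 0 reads entered at a floor of 3 reads. With 0 residual degrees of freedom no test was made. The 32 lists are word searches in the match descriptions. Members, lists and rules were chosen with earlier results of these data known, and search words were refined after descriptions had been read. Named genes were the 15 per direction with the largest lower bound of the ratio, up to 4 called members per list and direction, and the 5 of highest RPKM per library; families and others named were chosen after their values were seen. Alternatives changed scaling (TMM of edgeR 4.0.16, size factors of DESeq2 1.42.0), the added CPM, the minimum of reads, the fold, the length and the match. Python 3.11.15, pandas 2.3.3, scipy 1.17.1 and R 4.3.3 were used.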

Additional observations from a re-analysis of the deposited data

How the results depend on the processing

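The 392 higher and 38 lower unigenes became 413 and 33 under TMM, 424 and 32 under DESeq2 size factors, and 445 and 50 with 0.5 CPM added. With 5 CPM added they were 168 and 19, with at least 100 reads in either library 118 and 7, at 8-fold 155 and 22, among unigenes of at least 500 bases 103 and 9, and among arthropod matches 71 and 3. Without a minimum of reads they were 921 and 284, and at 2-fold 1841 and 919, so that the higher side held 76.4% and 66.7% of the calls, against 91.2% in the main count. Fewer unigenes enter under the stricter minimum, length and match; for the other settings the cause was not tested. Of the named unigenes 52 were followed through changes of scaling and added CPM, and 27 of these were past the 4-fold rule. With 5 CPM added 17 of the 27 missed it, and 9 of the 52 ratios moved beyond their counting interval. The rest of the 34 higher and 4 lower named unigenes were not counted here. Adding the same amount to both levels cannot change the direction of a ratio, so these settings do not check it. A named ratio near 1 can change direction under TMM or DESeq2 size factors. The median over all unigenes moved by 0.06 on the log2 scale under TMM and by 0.08 under DESeq2 size factors.

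No paired analysis was possible because each group held 1 library and both carry replicate number 1. For the same reason no library was left out. Depth limits the low end: 1 read was worth about 0.5 CPM, so calls near the minimum of 20 reads rest on few molecules. Sequenced reads are not independent molecules, and fragments of 1 gene are counted apart.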
